A study of Homo sapiens with 42 samples.

Results

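RNA levels of 38 genes that copy DNA in S phase or divide the cell in mitosis were followed in HAP1 cells, a near-haploid human line that comes from a chronic myeloid leukaemia line and grows attached. The genes were taken as a fixed list of names, 21 for mitosis and 17 for replication, out of 20515 named genes in the deposited table, and all 38 passed the filter on low values that left 14331 genes for testing. The 42 libraries came from 5 genotypes: wild type (wt), and lines labelled neil1, neil2, neil3 and neil123 for the lack of 1 NEIL DNA glycosylase or of NEIL1, NEIL2 and NEIL3 together. NEIL glycosylases remove oxidised bases from DNA. Each line was kept in media alone or received 200 µM buthionine sulfoximine (BSO) for 48 h, begun after 4 h. BSO blocks glutamate-cysteine ligase and so the synthesis of glutathione, the main small antioxidant of the cell. Every treatment had 7 wt, 3 neil1, 3 neil2, 4 neil3 and 4 neil123 libraries, and by name every library with BSO has a media partner from the same line, 21 pairs in all. Names end with a letter A or B in 4 wt pairs (1.1A, 1.1B, 1.3A, 1.3B) and in all neil3 and neil123 pairs, and carry no letter in 3 wt pairs (1.1, 1.3, p1) and in neil1 and neil2. The labels do not say what the letter stands for, whether a line is 1 clone or how the genes were disrupted. Each knockout was therefore compared with wt of its own label set.

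A dividing cell switches these genes on in order. In late G1, E2F factors turn on the genes for licensing origins (CDC6, CDT1 and the MCM2 to MCM7 helicase), for the fork (CDC45, GINS2, PCNA) and for deoxynucleotides (RRM1, RRM2, TYMS). The mitotic genes are held down in G0 and early G1 by the DREAM complex, which binds CHR elements in their promoters, and are turned on in G2 by B-MYB and FOXM1 complexes with NF-Y on CCAAT boxes: the kinases and cyclins that start mitosis (CDK1, CCNB1, CCNA2, PLK1, AURKA), the checkpoint and anaphase machinery (BUB1, CDC20, UBE2C), and the motors and kinetochore proteins that move chromosomes. In whole cultures, fewer cells in a phase and less RNA per cell cannot be told apart.

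Promoters of 31 of the 38 genes were matched by symbol in the RefSeq promoter table (GRCh38.p14, 250 bases before to 50 after the start). An E2F element (TTTCCCGC, TTTGGCGC, TTTCGCGC or TTTGCCGC, either strand) stood in 71.4% of 14 replication promoters, in 5.88% of 17 mitosis promoters and in 3.31% of all 35116 promoters of that length. A CHR element (TTTGAA or TTCGAA, either strand) stood in 14.3% of the replication promoters, 70.6% of the mitosis promoters and 16.4% of all. The CCAAT box (CCAAT, either strand) stood in 71.4%, 88.2% and 34.6%. Matches of different elements may overlap. A set of 7 promoters is shown because their genes carry the results below. HJURP and RRM2 rose with BSO in all genotypes, CCNB1, CCNA2 and KIF20A fell in several, and CDT1 rose in several. MKI67 is a long gene whose level dropped steeply with BSO in the wt pairs 1.1 and 1.3 without a letter. Each line gives the 250 bases before the start, 5′ to 3′, with E2F, CHR and CCAAT matches in capitals (ATTGG is CCAAT on the other strand).
HJURP: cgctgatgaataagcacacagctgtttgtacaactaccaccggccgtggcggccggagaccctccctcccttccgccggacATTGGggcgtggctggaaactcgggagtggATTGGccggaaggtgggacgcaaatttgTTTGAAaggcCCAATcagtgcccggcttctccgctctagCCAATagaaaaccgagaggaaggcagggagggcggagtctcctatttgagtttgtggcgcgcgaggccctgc
RRM2: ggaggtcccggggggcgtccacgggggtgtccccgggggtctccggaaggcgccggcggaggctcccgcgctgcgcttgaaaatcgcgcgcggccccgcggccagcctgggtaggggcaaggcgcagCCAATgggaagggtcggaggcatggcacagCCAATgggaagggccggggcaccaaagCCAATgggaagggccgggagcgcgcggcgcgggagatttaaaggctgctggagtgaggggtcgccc
CCNB1: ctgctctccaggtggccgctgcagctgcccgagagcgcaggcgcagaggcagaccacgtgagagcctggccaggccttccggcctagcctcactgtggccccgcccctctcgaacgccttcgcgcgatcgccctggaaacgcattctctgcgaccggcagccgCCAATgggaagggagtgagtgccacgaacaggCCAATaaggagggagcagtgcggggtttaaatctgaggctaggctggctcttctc
CCNA2: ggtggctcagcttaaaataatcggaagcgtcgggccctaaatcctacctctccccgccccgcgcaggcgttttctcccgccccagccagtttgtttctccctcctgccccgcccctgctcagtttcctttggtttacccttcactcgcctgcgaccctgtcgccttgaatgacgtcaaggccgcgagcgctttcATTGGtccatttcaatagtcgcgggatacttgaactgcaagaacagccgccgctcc
KIF20A: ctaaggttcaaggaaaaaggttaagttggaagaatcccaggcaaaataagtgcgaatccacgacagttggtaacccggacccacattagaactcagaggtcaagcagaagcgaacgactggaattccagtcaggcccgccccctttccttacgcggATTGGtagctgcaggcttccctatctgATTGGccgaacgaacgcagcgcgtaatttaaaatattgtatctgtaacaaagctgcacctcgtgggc
MKI67: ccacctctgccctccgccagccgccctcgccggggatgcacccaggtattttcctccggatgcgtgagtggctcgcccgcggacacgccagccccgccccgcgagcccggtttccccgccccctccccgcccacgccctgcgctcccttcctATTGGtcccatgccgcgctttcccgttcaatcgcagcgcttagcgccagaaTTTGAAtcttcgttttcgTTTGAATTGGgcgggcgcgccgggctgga
CDT1: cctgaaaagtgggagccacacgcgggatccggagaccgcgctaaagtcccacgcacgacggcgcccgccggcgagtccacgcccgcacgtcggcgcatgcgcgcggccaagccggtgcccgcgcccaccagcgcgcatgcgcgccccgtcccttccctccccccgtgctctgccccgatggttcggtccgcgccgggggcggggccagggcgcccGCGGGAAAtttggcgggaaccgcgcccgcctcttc
In GRCh38.p14 the stretches are chr2:233854536-233854785 (minus strand), chr2:10122489-10122738 (plus), chr5:69166900-69167149 (plus), chr4:121823884-121824133 (minus), chr5:138178862-138179111 (plus), chr10:128126424-128126673 (minus) and chr16:88803539-88803788 (plus). In the window of 300 bases HJURP had 4 CCAAT boxes and 1 CHR element, and MKI67 had 2 CCAAT boxes and 2 CHR elements. CCNB1, CCNA2 and KIF20A held CCAAT boxes (2, 1 and 2) and none of the CHR or E2F letters searched. RRM2 held 3 CCAAT boxes and CDT1 held 1 E2F element. A match is a string of letters, not a bound site.

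Libraries held 26.8 M to 30.7 M reads of named genes, with 29.9 M to 30.7 M without a letter and 26.8 M to 28.7 M with one. As a check of the labels, NEIL2 was lower in neil2 than in wt in media (311 ± 14.7 against 554 ± 63.2 normalized read counts, SD, n = 3 each) and in neil123 (224 ± 12.4 against 395 ± 27.7, n = 4 each). NEIL3 was lower in neil123 (424 ± 39.6 against 640 ± 35.2, n = 4 each). Its level in neil3 (520 ± 106, n = 4), and that of NEIL1 in neil1 (386 ± 116 against 355 ± 46.6, n = 3 each) and in neil123 (987 ± 109 against 852 ± 92.2, n = 4 each), did not pass as lower. The lines are named by their labels throughout. Of 11 blood markers 6 were in the table, and PTPRC (CD45) was at 0 to 2.92 counts in every library. The blood list summed to 14.6 to 769 counts over the libraries, the epithelial list (5 of 6 in the table) to 1944 to 11165, and the fibroblast and muscle list (5 of 8) to 563 to 2757.

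Levels below are the authors' normalized read counts, a library's count divided by a size factor close to 1. Changes are log2 differences of the count plus 1, with their standard error, from limma fitted to all 14331 genes, with Benjamini-Hochberg adjusted p over all of them and a threshold of 0.05. Libraries of a pair deviated together from their group in all 21 pairs, so results with BSO were also taken from the limma fit with the pair as a block, here called the paired fit. For single genes its values are given mainly where it moves a call. The p-values measure the spread between these cultures, which may be technical, and cultures of the same line share that line.

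Levels in wt differed by label set before any treatment. In media 18 of the 38 genes differed by limma between the 3 unlettered and 4 lettered wt cultures, 8 higher and 10 lower without a letter, beside 21.2% of all genes higher and 17.9% lower. E2F1, the activator of S-phase genes, was at 1542, 1578 and 1779 counts without a letter and at 2505, 2506, 2291 and 2467 with one, a log2 difference of -0.58 ± 0.06 (limma adjusted p = 1.94e-09). The groups did not overlap. PLK1 (-0.40 ± 0.06), CENPE (-0.42 ± 0.11) and HJURP (-0.32 ± 0.05) were also lower without a letter, and MCM6 (0.37 ± 0.09), RRM2 (0.32 ± 0.08) and RRM1 (0.27 ± 0.05) were higher. Set per exonic kilobase, PCNA led in unlettered wt in media (4955 counts per kb, CDC20 4697) and CDC20 in lettered wt (5607, PCNA 4538). In both sets CENPE (261 and 349), CCNE2 (105 and 86.9) and UBE2C (32.1 and 48.1) had the lowest levels per kb. UBE2C, the anaphase ubiquitin-conjugating enzyme, had only 32.00 to 88.32 counts in any library. Counts of TYMS, CCNE2, MCM2, RRM2, PLK1 and BUB1B are less certain: 46.6%, 37.1%, 23.6%, 20.2%, 12.5% and 10.2% of their exonic bases overlap another annotated gene. For RRM2 and BUB1B all of this overlap is with a gene on the same strand. For the others it is with genes on the opposite strand. The strand setting of the counting, which bears on overlaps of the second kind, is not given in the sources used here.

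Knockouts against their own wt in media gave few calls. In neil1, 1 of 38 genes was higher and 0 lower (0.174% of all genes higher and 0.126% lower). The gene was GINS2, a subunit of the replicative helicase, at 4609, 4287 and 4369 counts in neil1 against 3569, 3790 and 4097 in unlettered wt. The groups did not overlap, and the log2 difference was 0.21 ± 0.05 (limma adjusted p = 0.0409). Without wt culture 1.1 or 1.3 the limma adjusted p of GINS2 was 0.342 or 0.174, without neil1 rep12 it was 0.179, and without wt p1 a total of 9 of the 38 genes passed.

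In neil2, 4 of the 38 genes were higher and 2 lower (4.74% and 6.22% of all genes). By limma, with adjusted p after each value, the helicase subunits CDC45 (0.19 ± 0.05, 0.0149) and GINS2 (0.15 ± 0.05, 0.0470), the mitotic kinase CDK1 (0.18 ± 0.06, 0.0420) and its partner cyclin B1, CCNB1 (0.19 ± 0.06, 0.0447), were higher. CDC45 was at 2339, 2434 and 2607 counts in neil2 and at 2136, 2067 and 2267 in unlettered wt. CDK1 was at 4833, 4790 and 5031 against 4381, 4202 and 4311. Neither gene's groups overlapped. The proliferation antigen MKI67, which coats mitotic chromosomes, was lower at 18993, 14470 and 16345 against 23436, 23146 and 20055 (-0.43 ± 0.13, 0.0267). CENPF, a kinetochore protein, was lower at 9192, 7882 and 9018 against 11160, 11543 and 9303 (-0.29 ± 0.08, 0.0217). None of the 6 passed without wt cultures 1.1 and 1.3, which leaves p1 as the only unlettered wt culture. The difference of CDK1 was then as large (0.18), whereas those of CDC45 (0.12), CCNB1 (0.10), GINS2 (0.04), MKI67 (-0.28) and CENPF (-0.10) were smaller. With the trend on gene length removed from each library, an alternative chosen after seeing the data, none passed either (0.15, 0.13, 0.13, 0.10, -0.30 and -0.18 in the same order). Pearson's r between log2 exonic length and the log2 difference from mean unlettered wt in media was -0.0955, -0.130 and -0.128 in neil2 rep11.1, rep11.2 and rep12. For wt cultures 1.1, 1.3 and p1, each against the other unlettered wt cultures in media, r was 0.184, 0.0718 and -0.220. The part of length in these media differences was not tested further.

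In neil3, 0 of the 38 genes passed in media (0.188% of all genes higher and 0.251% lower), and the differences ran from -0.09 to 0.12. In neil123 the 1 gene was CCNE1, cyclin E1, which drives cells from G1 into S. CCNE1 was at 1021, 1054, 1008 and 1066 counts against 1312, 1193, 1200 and 1234 in lettered wt, with no overlap (-0.25 ± 0.06, 0.00732 as limma adjusted p). Of all genes 2.95% were higher and 2.39% lower there. In neil3 CCNE1 stood at 1161, 1166, 1219 and 1214. Without line 1 or line 2 of neil123 the difference of CCNE1 was -0.25 or -0.25, as large as with both, and its limma adjusted p was 0.0535 or 0.0720.

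**Figure D1:**
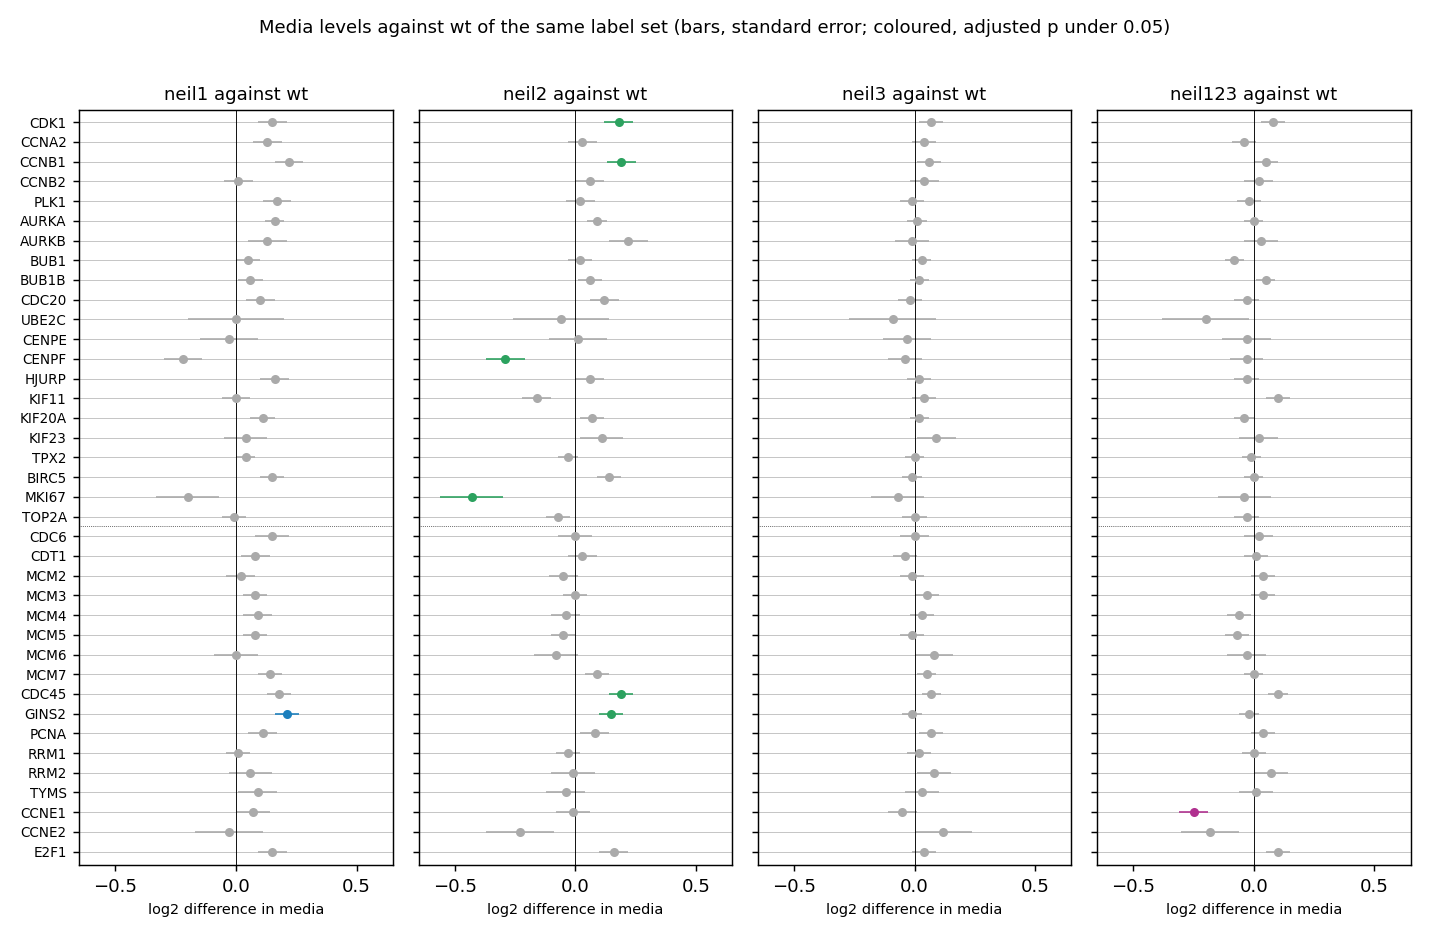
Log2 difference of each of the 38 genes in media between a knockout and wt of its label set (points, with standard error bars; coloured where limma's adjusted p is under 0.05). GINS2 in neil1, 6 genes in neil2 and CCNE1 in neil123 are coloured, and none in neil3.

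With BSO, HJURP and RRM2 were the only genes of the 38 to rise in all 21 pairs (3.49% of all genes did). None of the 38 fell in all 21 pairs (1.85% of all genes did). The 38 genes together took a smaller share of the reads with BSO in 20 of 21 pairs, the exception being wt 1.1B (0.918% to 1.05% in media and 0.896% to 1.01% with BSO). This share is a sum of reads, so genes with high counts weigh most in it. It fell in wt 1.1, wt 1.3 and neil2 rep11.1 although 23, 24 and 29 of the 38 genes were higher with BSO there. The median change was below 0 in 19 of 21 pairs for the mitosis genes and in 9 for the replication genes, and it was lower for mitosis than for replication in 20 pairs, all but neil3 1B. The median change over the 38 genes was -0.001 in wt, -0.051 in neil1, 0.023 in neil2, -0.071 in neil3 and -0.020 in neil123, beside -0.002, -0.006, 0.004, -0.008 and 0.001 over all genes tested. The wt median pools pairs that differed: it was 0.069 and 0.090 in the unlettered pairs 1.1 and 1.3. Without those pairs the paired fit gave a wt median of -0.029, beside -0.007 over all genes. The pairs of neil2 differed as well. Their medians over the 38 genes were 0.053 in rep11.1 (0.029 over all genes), -0.008 in rep11.2 and -0.003 in rep12. HJURP and RRM2 rose in every genotype by the paired fit. AURKA, CCNB1, CCNA2 and KIF20A, which act in G2 and mitosis, each fell in 3 or 4 genotypes by that fit. The share of all genes called alike in as many genotypes is not given here. In wt 3 genes were higher and 6 lower by limma without the block (7.64% and 6.87% of all genes), and 6 higher and 11 lower by the paired fit (17.7% and 17.7%). In neil3 these counts were 1 higher and 4 lower (3.56% and 3.08% of all genes), and 3 and 10 paired (11.3% and 12.7%). In neil1 they were 1 higher and 0 lower (0.893% and 0.398%), and 4 and 6 paired (5.50% and 5.53%). In neil2 they were 1 and 0 (0.154% and 0.0209%), and 4 and 1 paired (5.18% and 3.28%). In neil123 they were 1 and 0 (1.40% and 0.300%), and 2 and 2 paired (6.92% and 4.75%). Read against all genes, the share of the 38 called higher in the paired fit was above the background in neil1 and neil2 and at or under it in the other genotypes, and the share called lower was above it in wt, neil1 and neil3 and close to it in neil2 and neil123. Without the unlettered wt pairs 1.1 and 1.3 the paired fit of wt gave 4 higher and 11 lower (12.6% and 13.8% of all genes). The wt calls without the block for CDT1, MCM5, MKI67, CENPF and CENPE then ended.

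**Figure D2:**
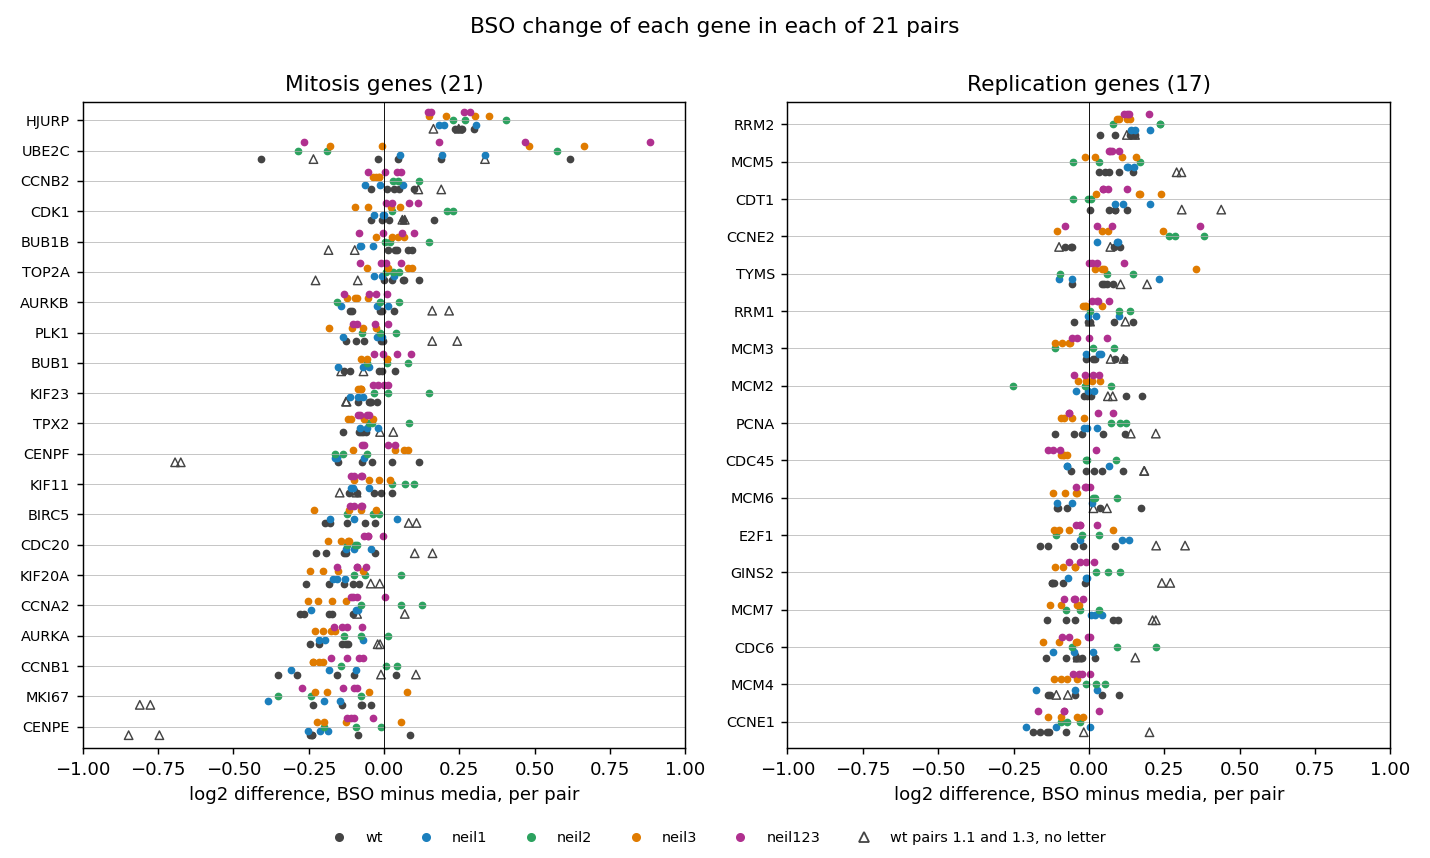
Log2 difference between BSO and media for each gene in each of the 21 pairs, coloured by genotype; open triangles mark the wt pairs 1.1 and 1.3 without a letter. HJURP and RRM2 lie to the right of 0 in every pair, and the triangles stand far left for CENPE, MKI67 and CENPF.

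HJURP, the chaperone that deposits the centromere histone CENP-A in early G1, was higher with BSO in all 21 pairs. Counts are given as media to BSO, pair by pair, in the order 1.1, 1.3, p1, then 1.1A, 1.1B, 1.3A, 1.3B for wt, rep12, rep13.1, rep13.2 for neil1, rep11.1, rep11.2, rep12 for neil2, and 1A, 1B, 2A, 2B for neil3 and neil123. In wt, HJURP counts went from 2594 to 2907, 2631 to 3124 and 2813 to 3332 without a letter and from 3230 to 3864, 3443 to 4049, 3351 to 3996 and 3349 to 4117 with one. HJURP counts went from 2820 to 3235, 3049 to 3462 and 3129 to 3867 in neil1 and from 2698 to 3570, 2832 to 3321 and 2837 to 3418 in neil2. For neil3 the HJURP pairs were 3345 to 4128, 3461 to 3992, 3428 to 3805 and 3370 to 4292, and for neil123 they were 3251 to 3625, 3379 to 4061, 3155 to 3848 and 3289 to 3639. The media and BSO ranges of HJURP did not overlap within any knockout or within either wt label set. The rise was 18.3% in wt (0.24 ± 0.04, 1.22e-05 as limma adjusted p without the block), 17.2% in neil1 (0.23 ± 0.06, 0.0294), 23.2% in neil2 (0.30 ± 0.06, 0.00769), 19.1% in neil3 (0.25 ± 0.05, 6.63e-04) and 16.0% in neil123 (0.21 ± 0.05, 0.0104). In the paired fit its limma adjusted p was 3.03e-08, 2.97e-04, 1.24e-05, 3.64e-06 and 8.19e-05 in the same order. Of all genes 3.49% were higher in every pair, and 1.85%, none of the 38 among them, were lower in every pair. With libraries scaled to equal totals HJURP passed only in wt and neil3 without the block (limma adjusted p = 0.111 in neil1, 0.0850 in neil2 and 0.0550 in neil123). Leaving out either line of a knockout also ended its call without the block, with log2 changes of 0.20 to 0.32.

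RRM2, the small subunit of ribonucleotide reductase that sets deoxynucleotide supply in S phase, was the other gene of the 38 that was higher in all 21 pairs. In wt, RRM2 counts went from 17724 to 19339, 15143 to 16841 and 16191 to 17782 without a letter and from 14104 to 14961, 11916 to 13261, 14235 to 14601 and 12266 to 13504 with one. RRM2 counts went from 16775 to 18633, 18316 to 21090 and 15915 to 17555 in neil1 and from 16617 to 19581, 15169 to 16034 and 16790 to 19788 in neil2. For neil3 the RRM2 pairs were 15086 to 16173, 12861 to 14139, 14560 to 15898 and 12874 to 13724, and for neil123 they were 14574 to 15985, 13225 to 15185, 13976 to 15265 and 13285 to 14421. The shift was small beside the differences between cultures, and media and BSO ranges overlapped in every knockout and in both wt label sets. Without the block RRM2 passed in no genotype. RRM2 rose in the paired fit by 8.56% in wt (0.12 ± 0.02, 1.38e-04 as limma adjusted p), 12.2% in neil1 (0.17 ± 0.03, 0.00164), 13.7% in neil2 (0.18 ± 0.03, 7.81e-04), 8.22% in neil3 (0.11 ± 0.03, 0.00541) and 10.5% in neil123 (0.14 ± 0.03, 0.00126). Its partner subunit RRM1 was higher in 15 of 21 pairs, with changes of -0.05 to 0.15, and passed in no genotype. TYMS, which makes thymidylate, was higher in 16 of 21 pairs (-0.10 to 0.36) and also passed in none.

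**Figure D3:**
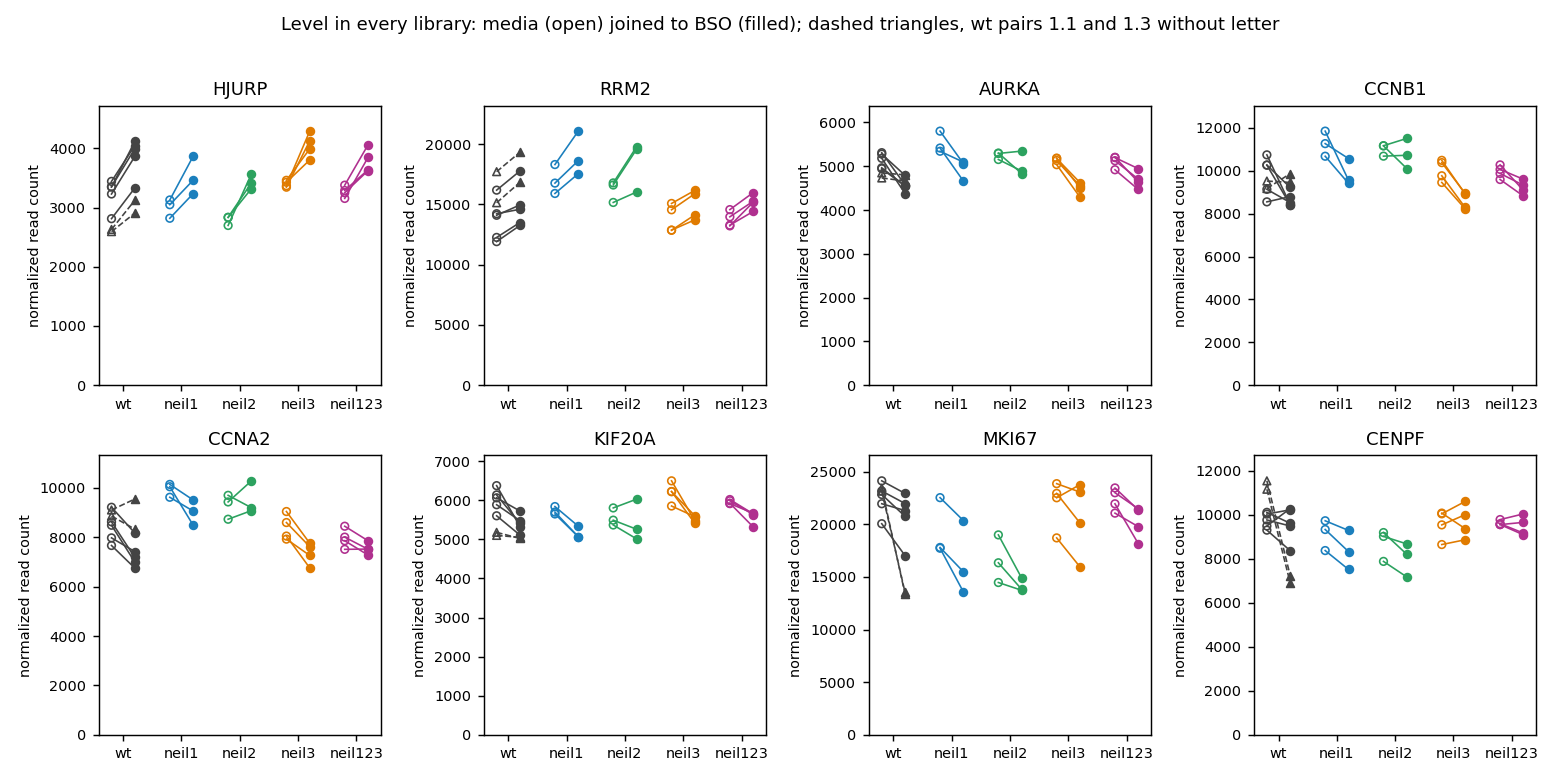
Normalized read count of 8 genes in every library, media (open) joined to BSO (filled) for each pair; dashed lines with triangles are the wt pairs 1.1 and 1.3 without a letter. HJURP and RRM2 climb in every pair, and MKI67 and CENPF drop most steeply in the dashed pairs.

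Among the mitotic kinases and cyclins, AURKA, the kinase that matures centrosomes and builds the spindle, was lower with BSO in 20 of 21 pairs. In wt, AURKA counts went from 4848 to 4804, 4732 to 4664 and 5278 to 4791 without a letter and from 5182 to 4375, 4944 to 4548, 5310 to 4574 and 4964 to 4553 with one. AURKA counts went from 5802 to 5062, 5416 to 4663 and 5343 to 5094 in neil1 and from 5292 to 5346, 5154 to 4891 and 5301 to 4834 in neil2. For neil3 the AURKA pairs were 5132 to 4547, 5186 to 4511, 5176 to 4627 and 5036 to 4294, and for neil123 they were 5205 to 4640, 5127 to 4706, 4920 to 4469 and 5197 to 4945. In lettered wt, neil1 and neil3 all BSO cultures were below all media cultures of the same group, and the single pair that went up was neil2 rep11.1. Without the block AURKA fell by 8.33% in wt (-0.13 ± 0.03, 0.00312 as limma adjusted p) and 12.5% in neil3 (-0.19 ± 0.04, 0.00141). With the pair as a block AURKA fell also by 10.5% in neil1 (-0.16 ± 0.04, 0.00474) and 8.29% in neil123 (-0.12 ± 0.03, 0.0101), and it was not called in neil2 (-0.06 ± 0.04).

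CCNB1 encodes cyclin B1, which brings CDK1 to full activity at mitotic entry, and its level was lower with BSO in 17 of 21 pairs. In wt, CCNB1 counts went from 9173 to 9870, 9523 to 9459 and 10269 to 9224 without a letter and from 10267 to 8414, 8552 to 8799, 10745 to 8423 and 9137 to 8520 with one. CCNB1 counts went from 11852 to 9564, 10681 to 9414 and 11270 to 10574 in neil1 and from 11172 to 11512, 10685 to 10726 and 11165 to 10107 in neil2. For neil3 the CCNB1 pairs were 10383 to 8952, 9769 to 8292, 10489 to 8918 and 9457 to 8228, and for neil123 they were 10066 to 9605, 9877 to 9328, 9595 to 8823 and 10277 to 9088. All neil1 and neil3 cultures with BSO were below their media cultures, whereas wt 1.1 and 1.1B and neil2 rep11.1 and rep11.2 went up. CCNB1 fell by 14.2% in neil3 without the block (-0.22 ± 0.05, 0.00884 as limma adjusted p). With the pair as a block CCNB1 fell also by 12.6% in neil1 (-0.19 ± 0.05, 0.0153) and 7.22% in wt (-0.11 ± 0.03, 0.0150). Without the unlettered wt pairs 1.1 and 1.3 the paired change of CCNB1 in wt was larger (-0.17 ± 0.04, 0.00118).

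CCNA2, cyclin A2, which acts in S phase and G2, was lower in 17 of 21 pairs. In wt, CCNA2 counts went from 9101 to 9545, 8857 to 8327 and 9211 to 8170 without a letter and from 8483 to 6994, 7972 to 7418, 8621 to 7179 and 7664 to 6749 with one. CCNA2 counts went from 10043 to 8489, 10136 to 9507 and 9616 to 9059 in neil1 and from 9427 to 10281, 8727 to 9076 and 9694 to 9193 in neil2. For neil3 the CCNA2 pairs were 9039 to 7758, 7922 to 7262, 8593 to 7617 and 8045 to 6757, and for neil123 they were 8444 to 7856, 8003 to 7512, 7857 to 7277 and 7509 to 7520. Treatments did not overlap in lettered wt, neil1 and neil3, and the pairs that went up were wt 1.1, neil2 rep11.1 and rep11.2 and neil123 2B. CCNA2 fell in wt (-0.15 ± 0.04, 0.0125 as limma adjusted p) and neil3 (-0.19 ± 0.05, 0.0226), and in the paired fit also in neil1 (-0.14 ± 0.04, 0.0370). Leaving out neil3 1A or 2A in media, or 1B or 2B with BSO, ended the neil3 call without the block.

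CDK1, the kinase these cyclins bind, was higher in 15 of 21 pairs. In wt, CDK1 counts went from 4381 to 4596, 4202 to 4385 and 4311 to 4359 without a letter and from 3555 to 3716, 3462 to 3887, 3906 to 3886 and 3764 to 3655 with one. CDK1 counts went from 4939 to 4823, 4579 to 4582 and 4760 to 4750 in neil1 and from 4833 to 5662, 4790 to 4878 and 5031 to 5810 in neil2. For neil3 the CDK1 pairs were 3768 to 3825, 3634 to 3501, 4049 to 4200 and 3992 to 3738, and for neil123 they were 3734 to 4036, 4102 to 4175, 3635 to 3850 and 4092 to 4112. The widest gaps were in neil2 rep11.1 and rep12. CDK1 passed in neil2 alone, and there only in the paired fit (0.15 ± 0.04, 0.0156 as limma adjusted p). CCNB2, cyclin B2, was higher in 13 of 21 pairs (-0.06 to 0.19) and rose in wt in the paired fit (0.06 ± 0.02, 0.0295), but did not pass without wt pairs 1.1 and 1.3 (0.03, 0.445).

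PLK1, the Polo kinase that acts from mitotic entry to cytokinesis, was lower in 17 of 21 pairs. In wt, PLK1 counts went from 11048 to 13079, 10996 to 12286 and 13889 to 13802 without a letter and from 15839 to 15142, 16087 to 14747, 15355 to 14402 and 15428 to 15402 with one. PLK1 counts went from 13908 to 13702, 13516 to 12307 and 12652 to 12600 in neil1 and from 11945 to 12275, 12031 to 11914 and 12226 to 11625 in neil2. For neil3 the PLK1 pairs were 15112 to 14042, 15765 to 15471, 15891 to 14004 and 15366 to 14659, and for neil123 they were 16114 to 15003, 15226 to 14325, 15407 to 15533 and 14986 to 14663. The wt pairs 1.1 and 1.3 without a letter went up, by 0.24 and 0.16 on the log2 scale, as did neil2 rep11.1 and neil123 2A. PLK1 fell in neil3 in the paired fit (-0.10 ± 0.04, 0.0493 as limma adjusted p). AURKB, the kinase of the chromosomal passenger complex, was lower in 15 of 21 pairs (-0.16 to 0.22) and passed in no genotype over all pairs.

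Of the checkpoint and anaphase genes, CDC20, the activator of the anaphase-promoting complex, was lower in 19 of 21 pairs, the exceptions being wt 1.1 and 1.3 without a letter (0.16 and 0.10). CDC20 fell in neil3 (-0.14 ± 0.04, 0.00363 as limma adjusted p) and in lettered wt (-0.14 ± 0.04, 0.00317) in the paired fit. BUB1, a checkpoint kinase, fell in wt in the paired fit (-0.06 ± 0.03, 0.0498), but not without wt pairs 1.1 and 1.3 (-0.05, 0.252). BUB1B, the checkpoint protein BubR1, was higher in 13 of 21 pairs without passing, and UBE2C ranged from -0.41 to 0.88.

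Among motors and spindle proteins, KIF20A, a kinesin of the central spindle that is needed for cytokinesis, was lower in 20 of 21 pairs. In wt, KIF20A counts went from 5179 to 5023, 5101 to 5052 and 5603 to 5109 without a letter and from 6136 to 5408, 6063 to 5725, 6374 to 5329 and 5886 to 5478 with one. KIF20A counts went from 5697 to 5067, 5650 to 5069 and 5839 to 5338 in neil1 and from 5804 to 6028, 5491 to 5259 and 5368 to 5013 in neil2. For neil3 the KIF20A pairs were 6220 to 5603, 5853 to 5580, 6497 to 5475 and 6224 to 5409, and for neil123 they were 6019 to 5653, 5924 to 5319, 5914 to 5671 and 5987 to 5634. Treatments did not overlap in lettered wt, neil1, neil3 or neil123, and the pair that went up was neil2 rep11.1. KIF20A fell in wt (-0.12 ± 0.03, 0.00896 as limma adjusted p) and neil3 (-0.17 ± 0.04, 0.00892), and in the paired fit also in neil1 (-0.15 ± 0.04, 0.00970). TPX2, which activates AURKA on the spindle, fell in wt (-0.06 ± 0.02, 0.0385) and neil3 (-0.08 ± 0.03, 0.0340) in the paired fit. KIF23, a kinesin of the midbody, fell in the same genotypes (-0.07 ± 0.02, 0.0108 and -0.08 ± 0.03, 0.0439). KIF11, the kinesin that pushes spindle poles apart, fell in wt (-0.07 ± 0.02, 0.0232) and neil123 (-0.09 ± 0.03, 0.0497), and BIRC5, survivin, fell in neil3 (-0.11 ± 0.04, 0.0227). Without wt pairs 1.1 and 1.3 the paired wt changes of KIF11 (-0.04, 0.210) and KIF23 (-0.05, 0.150) did not pass, and that of TPX2 did (-0.08 ± 0.02, 0.0114).

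The longest genes behaved differently in the unlettered wt pairs 1.1 and 1.3. MKI67, CENPF and CENPE are the longest of the 38 genes, with 12.81, 11.69 and 9.44 exonic kb. In wt, MKI67 counts went from 23436 to 13365, 23146 to 13524 and 20055 to 17025 without a letter and from 22833 to 20749, 23165 to 21971, 21953 to 21306 and 24128 to 22932 with one. MKI67 counts went from 17727 to 13578, 22531 to 20355 and 17799 to 15492 in neil1 and from 18993 to 14894, 14470 to 13732 and 16345 to 13819 in neil2. For neil3 the MKI67 pairs were 23859 to 23059, 22520 to 23769, 18708 to 15953 and 22935 to 20124, and for neil123 they were 23454 to 21362, 21946 to 18162, 22997 to 21475 and 21060 to 19776. MKI67 changed by -0.81 and -0.78 in wt 1.1 and 1.3, and by -0.38 to 0.08 in the other 19 pairs. In wt, CENPF counts went from 11160 to 6903, 11543 to 7235 and 9303 to 8369 without a letter and from 9766 to 9489, 9492 to 10283, 10032 to 10227 and 10111 to 9614 with one. CENPF counts went from 8375 to 7516, 9728 to 9290 and 9332 to 8328 in neil1 and from 9192 to 8203, 7882 to 7175 and 9018 to 8675 in neil2. For neil3 the CENPF pairs were 10043 to 10605, 9541 to 10004, 8648 to 8865 and 10077 to 9373, and for neil123 they were 9783 to 10041, 9556 to 9091, 9554 to 9656 and 9596 to 9168. CENPF changed by -0.69 and -0.67 in wt 1.1 and 1.3, and by -0.16 to 0.12 in the others. In wt, CENPE counts went from 2602 to 1446, 2591 to 1546 and 2203 to 1858 without a letter and from 3406 to 2886, 3034 to 3221, 3617 to 3064 and 3121 to 2943 with one. CENPE counts went from 1943 to 1632, 2402 to 2112 and 2974 to 2566 in neil1 and from 2566 to 2405, 2377 to 2360 and 2510 to 2188 in neil2. For neil3 the CENPE pairs were 3509 to 3214, 3090 to 3210, 3063 to 2669 and 3216 to 2758, and for neil123 they were 3281 to 3043, 3337 to 3118, 3091 to 2838 and 3176 to 3094. CENPE, the kinetochore motor that aligns chromosomes, changed by -0.85 and -0.74 there and by -0.25 to 0.09 in the rest. No other pair reached the change of wt 1.1 and 1.3 for any of these 3 genes.

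By limma over all wt pairs, with adjusted p after each value, MKI67 (-0.31 ± 0.08, 0.00982), CENPF (-0.21 ± 0.05, 0.00687) and CENPE (-0.33 ± 0.08, 0.00296) fell. Leaving out any 1 of the 4 libraries of wt 1.1 and 1.3 ended the calls of MKI67 (log2 changes of -0.25 to -0.24) and CENPF (-0.16 to -0.14) but not that of CENPE. Without the pairs 1.1 and 1.3 none of them passed (-0.11, -0.02 and -0.14; limma adjusted p = 0.616, 0.901 and 0.423). In the paired fit without those pairs MKI67 (-0.11 ± 0.04, 0.0312) and CENPE (-0.14 ± 0.04, 0.00609) still fell in wt, and CENPF did not pass (-0.02, 0.600). Among the knockouts MKI67 fell in the paired fit in neil1 (-0.24 ± 0.07, 0.0212) and neil2 (-0.22 ± 0.07, 0.0427), and CENPE in neil1 (-0.22 ± 0.07, 0.0412).

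Length moved with the change in those pairs over the whole table. Across 13591 genes with a known exonic length, Pearson's r between the log2 change and log2 length was -0.277 in wt 1.1 and -0.214 in wt 1.3, and between -0.0976 and 0.0812 in the other 19 pairs. Across the 38 genes r was -0.624 in wt 1.1 and -0.668 in wt 1.3, and between -0.424 and 0.438 in the other 19 pairs. These r values are descriptions over genes within 1 pair of libraries, and genes are not replicates. The 2930 genes over 8 kb had a median change of -0.157 and -0.112 in wt 1.1 and 1.3 and of -0.038 to 0.034 in the others. With the length trend removed from each library, MKI67, CENPF and CENPE changed by -0.26, -0.17 and -0.30 in wt (limma adjusted p = 0.00980, 0.00499 and 0.00413). The part of transcript length in these changes was not tested further. TOP2A, the topoisomerase that untangles sister chromatids, has 6.44 exonic kb. In wt, TOP2A counts went from 17735 to 15155, 17950 to 16897 and 16927 to 17691 without a letter and from 15363 to 16108, 15632 to 16953, 16310 to 16304 and 15938 to 16249 with one. TOP2A counts went from 16444 to 16370, 17532 to 17937 and 18154 to 17732 in neil1 and from 16812 to 17403, 15964 to 16038 and 17395 to 17777 in neil2. For neil3 the TOP2A pairs were 16235 to 17144, 15621 to 16650, 15069 to 15212 and 16164 to 15551, and for neil123 they were 15425 to 15490, 15288 to 15197, 14642 to 15213 and 16545 to 15672. TOP2A changed by -0.23 and -0.09 in wt 1.1 and 1.3, by -0.08 to 0.12 elsewhere, and passed in no genotype.

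**Figure D4:**
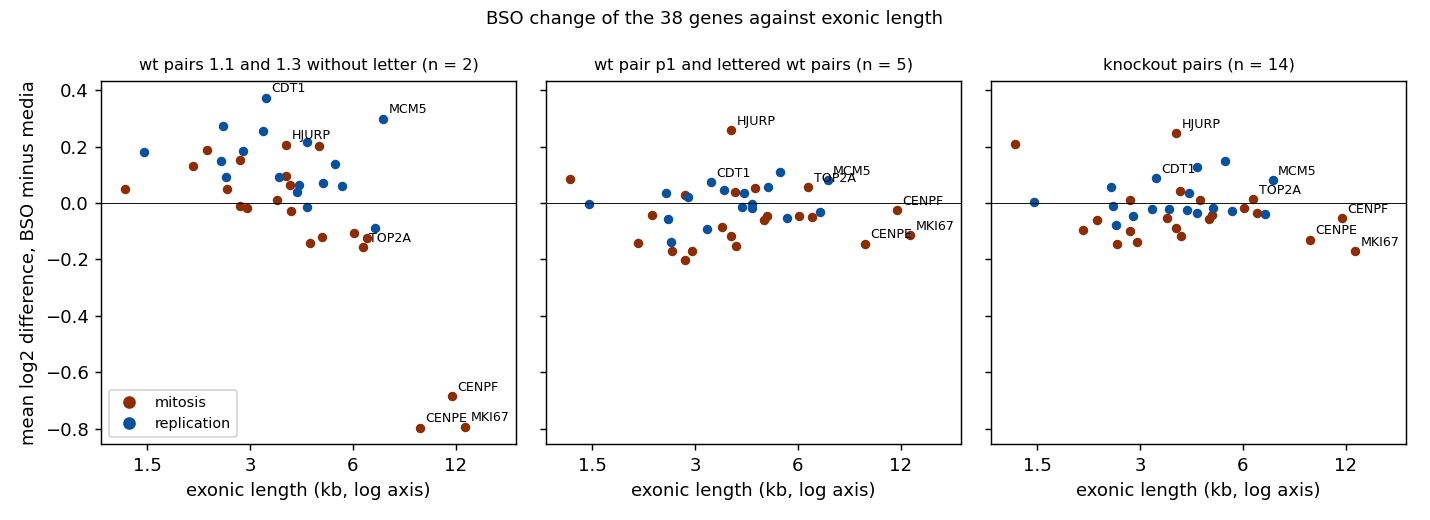
Mean log2 change with BSO of each of the 38 genes against its exonic length (log axis), for the wt pairs 1.1 and 1.3 without a letter, the other 5 wt pairs and the 14 knockout pairs; colours mark mitosis and replication genes. MKI67, CENPF and CENPE, at the right of each panel, lie far lower in the first panel than in the others.

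The label sets of wt gave different counts. In the paired fit, lettered wt had 2 genes higher (HJURP, RRM2; 10.7% of all genes) and 9 lower (12.3% of all genes): CCNA2, AURKA, KIF20A, CDC20, CCNB1, BIRC5, GINS2, TPX2 and CCNE1. Unlettered wt had 13 higher (17.9%) and 4 lower (13.8%). Higher were 9 of the 17 replication genes (CDT1, MCM5, MCM7, E2F1, GINS2, RRM2, PCNA, CDC45, MCM3) with HJURP, CCNB2, PLK1 and AURKB, and lower were CENPE, MKI67, CENPF and KIF23. The difference between the sets itself passed for 13 genes. It was positive for GINS2, E2F1, MCM7, CDT1, PLK1, MCM5, CDC20, BIRC5, AURKB and PCNA (8.17% of all genes) and negative for CENPF, MKI67 and CENPE (6.52%). Without pairs 1.1 and 1.3 the paired fit of wt called 4 genes higher (12.6% of all genes) and 11 lower (13.8%). Higher were HJURP, RRM2, MCM5 and CDT1, and lower were CCNA2, AURKA, CDC20, KIF20A, CCNB1, CCNE1, BIRC5, GINS2, CENPE, TPX2 and MKI67.

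Of the licensing and helicase genes, CDT1 and MCM5 were higher with BSO in 19 of 21 pairs each. CDT1 loads the MCM helicase onto origins. In wt, CDT1 counts went from 4583 to 5675, 4517 to 6122 and 5502 to 6014 without a letter and from 5826 to 6104, 5919 to 5935, 5565 to 5906 and 5782 to 6138 with one. CDT1 counts went from 5579 to 6418, 5093 to 5402 and 4776 to 5167 in neil1 and from 5073 to 4891, 4966 to 4957 and 4844 to 4872 in neil2. For neil3 the CDT1 pairs were 5363 to 6014, 5769 to 6491, 5861 to 5957 and 5500 to 6494, and for neil123 they were 6112 to 6309, 5558 to 6063, 5796 to 5984 and 5783 to 6040. The increase was widest in wt 1.3 and 1.1 (0.44 and 0.31), and neil2 rep11.1 and rep11.2 went down. CDT1 rose in wt (0.16 ± 0.04, 0.00732 as limma adjusted p), and in the paired fit also in neil1 (0.13 ± 0.04, 0.0406) and neil3 (0.15 ± 0.04, 0.00324). Without wt pairs 1.1 and 1.3 the wt change of CDT1 was 0.07 and that of MCM5 0.08, and neither passed without the block (limma adjusted p = 0.399 and 0.276).

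MCM5 is a subunit of that helicase. In wt, MCM5 counts went from 7284 to 8910, 6915 to 8558 and 8099 to 8959 without a letter and from 8438 to 8836, 8197 to 8388, 8237 to 8552 and 8053 to 8635 with one. MCM5 counts went from 8391 to 9170, 7879 to 8615 and 7299 to 8088 in neil1 and from 6904 to 7073, 7280 to 7011 and 7283 to 8189 in neil2. For neil3 the MCM5 pairs were 8167 to 8286, 8042 to 8683, 8766 to 8685 and 7778 to 8674, and for neil123 they were 7943 to 8367, 7765 to 8318, 7864 to 8248 and 7800 to 8169. In unlettered wt and in neil123 all BSO cultures were above all media cultures. MCM5 rose in wt (0.14 ± 0.04, 0.00513 as limma adjusted p) and in the paired fit in neil1 (0.13 ± 0.04, 0.0214). The other MCM genes were split between directions. In wt, MCM2 counts went from 8573 to 8956, 8236 to 8697 and 8623 to 9386 without a letter and from 8681 to 8729, 7360 to 8319, 8513 to 8482 and 8104 to 8017 with one. MCM2 counts went from 9132 to 8855, 8862 to 8845 and 7782 to 7873 in neil1 and from 7871 to 8275, 8272 to 6944 and 8451 to 8366 in neil2. For neil3 the MCM2 pairs were 8349 to 8287, 8275 to 8497, 7834 to 7640 and 7824 to 7884, and for neil123 they were 8239 to 8442, 8309 to 8035, 8524 to 8455 and 8387 to 8472. MCM2 was higher in 11 of 21 pairs, MCM4 lower in 15 (-0.18 to 0.10), MCM6 lower in 12 (-0.12 to 0.17) and MCM7 lower in 13 (-0.14 to 0.22), and none of these 4 passed in any genotype over all pairs. MCM3 was called in both directions in the paired fit, higher in wt (0.06 ± 0.02, 0.0451) and lower in neil3 (-0.08 ± 0.03, 0.0489), and the wt call ended without wt pairs 1.1 and 1.3 (0.05, 0.230).

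CDC6, which brings CDT1 and the helicase to origins, was lower in 15 of 21 pairs and passed in no genotype. In wt, CDC6 counts went from 4400 to 4289, 3853 to 4286 and 4120 to 4054 without a letter and from 4036 to 3827, 3526 to 3576, 4294 to 3891 and 3662 to 3552 with one. CDC6 counts went from 4834 to 4447, 4422 to 4465 and 4430 to 4281 in neil1 and from 3875 to 4528, 4257 to 4096 and 4254 to 4535 in neil2. For neil3 the CDC6 pairs were 4046 to 3939, 3482 to 3382, 4313 to 4030 and 3709 to 3338, and for neil123 they were 4191 to 4001, 3770 to 3761, 3843 to 3851 and 3933 to 3700. GINS2 and CDC45 join MCM in the active helicase. In wt, GINS2 counts went from 3569 to 4304, 3790 to 4483 and 4097 to 4062 without a letter and from 3990 to 3667, 3996 to 3686, 3959 to 3639 and 4010 to 3776 with one. GINS2 counts went from 4609 to 4585, 4287 to 4089 and 4369 to 4348 in neil1 and from 4077 to 4144, 4162 to 4467 and 4428 to 4632 in neil2. For neil3 the GINS2 pairs were 4057 to 3750, 4045 to 3920, 3912 to 3792 and 3838 to 3616, and for neil123 they were 4051 to 4021, 3918 to 3740, 3754 to 3797 and 4017 to 3934. GINS2 went up in wt 1.1 and 1.3 (0.27 and 0.24) and down in the other 5 wt pairs, and passed in no genotype over all pairs. In wt, CDC45 counts went from 2136 to 2426, 2067 to 2347 and 2267 to 2334 without a letter and from 2365 to 2351, 2263 to 2449, 2314 to 2222 and 2323 to 2350 with one. CDC45 counts went from 2433 to 2317, 2441 to 2320 and 2439 to 2557 in neil1 and from 2339 to 2488, 2434 to 2426 and 2607 to 2591 in neil2. For neil3 the CDC45 pairs were 2495 to 2341, 2544 to 2396, 2344 to 2231 and 2347 to 2219, and for neil123 they were 2386 to 2197, 2470 to 2310, 2395 to 2435 and 2673 to 2434. CDC45 was lower in 13 of 21 pairs and higher in all unlettered wt pairs. PCNA is the sliding clamp of DNA polymerases. In wt, PCNA counts went from 7525 to 8283, 6873 to 8018 and 7467 to 7711 without a letter and from 6989 to 6755, 6269 to 6811, 7145 to 6600 and 6300 to 6198 with one. PCNA counts went from 7576 to 7722, 8012 to 7973 and 7957 to 7869 in neil1 and from 7469 to 8127, 7280 to 7654 and 8305 to 8925 in neil2. For neil3 the PCNA pairs were 7127 to 6692, 6656 to 6406, 7512 to 7100 and 6669 to 6589, and for neil123 they were 6854 to 6541, 6408 to 6774, 7180 to 6854 and 7042 to 7192. PCNA was higher in 10 pairs and lower in 11, and its treatments did not overlap in unlettered wt.

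At the G1/S boundary the cyclins E and E2F1 were measured. In wt, CCNE1 counts went from 1049 to 1205, 1213 to 1199 and 1200 to 1073 without a letter and from 1312 to 1154, 1193 to 1133, 1200 to 1089 and 1234 to 1127 with one. CCNE1 counts went from 1343 to 1246, 1128 to 975.3 and 1174 to 1177 in neil1 and from 1111 to 1089, 1122 to 1068 and 1197 to 1123 in neil2. For neil3 the CCNE1 pairs were 1161 to 1129, 1166 to 1151, 1219 to 1111 and 1214 to 1139, and for neil123 they were 1021 to 963.4, 1054 to 1078, 1008 to 952.0 and 1066 to 948.8. CCNE1 was lower in 18 of 21 pairs, and its treatments did not overlap in lettered wt and neil3. CCNE1 fell in lettered wt in the paired fit (-0.13 ± 0.05, 0.0346 as limma adjusted p). In wt, CCNE2 counts went from 535.9 to 500.4, 390.6 to 410.3 and 455.9 to 438.8 without a letter and from 414.5 to 397.9, 373.3 to 395.5, 371.4 to 351.3 and 369.2 to 396.3 with one. CCNE2 counts went from 380.2 to 387.8, 529.1 to 566.2 and 444.2 to 474.2 in neil1 and from 391.3 to 510.3, 333.0 to 400.8 and 449.7 to 547.8 in neil2. For neil3 the CCNE2 pairs were 448.7 to 532.4, 403.6 to 374.7, 380.4 to 391.7 and 425.6 to 444.6, and for neil123 they were 338.7 to 320.4, 333.4 to 431.1, 345.4 to 364.7 and 328.5 to 334.7. CCNE2, cyclin E2, was higher in 12 of 14 knockout pairs and rose in neil2 in the paired fit (0.31 ± 0.07, 0.00691). In wt, E2F1 counts went from 1542 to 1924, 1578 to 1841 and 1779 to 1891 without a letter and from 2505 to 2240, 2506 to 2284, 2291 to 2217 and 2467 to 2433 with one. E2F1 counts went from 1807 to 1949, 1839 to 1803 and 1796 to 1968 in neil1 and from 1824 to 1797, 1925 to 1786 and 1731 to 1770 in neil2. For neil3 the E2F1 pairs were 2458 to 2297, 2518 to 2408, 2647 to 2444 and 2448 to 2587, and for neil123 they were 2429 to 2377, 2448 to 2496, 2901 to 2818 and 2721 to 2662. E2F1 was higher in all 3 unlettered wt pairs, and the difference between the label sets passed in the paired fit (0.30 ± 0.06, 0.00122).

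Whether a knockout changed the response to BSO was tested as the difference between its BSO change and that of wt of the same label set. By limma without the block, 0 of 38 genes passed for neil1, neil2, neil3 and neil123 (0% of all genes each). At an unadjusted p under 0.05 there were 6, 8, 0 and 0 of the 38 genes and 944, 1468, 124 and 255 of all genes. Adjusted, edgeR on recovered reads called 1, 2, 0 and 0 and DESeq2 3, 26, 0 and 1 of all genes, and neither called any of the 38. In the paired fit neil3 (0% of all genes) and neil123 (0.0349%) again had 0 of 38, while neil1 had 3 (2.21%) and neil2 had 9 (10.4%). The 3 in neil1 were CENPF (0.38), CENPE (0.40) and MKI67 (0.36). In neil2 the value was larger than in wt for CENPE (0.51), CENPF (0.39), MKI67 (0.38), CCNE2 (0.34) and KIF11 (0.15), and smaller for CDT1 (-0.31), E2F1 (-0.24), MCM7 (-0.20) and MCM5 (-0.20). Without wt pairs 1.1 and 1.3 the paired fit called 0 of 38 for both neil1 and neil2 (0% of all genes each), with p1 as the only unlettered wt pair. CENPE, CENPF and MKI67 then differed by 0.03, 0.02 and -0.01 in neil1 and by 0.14, 0.03 and 0.01 in neil2. Of the other genes called in neil2, CCNE2 kept its size (0.37 ± 0.15), and CDT1 (-0.14), E2F1 (-0.12), MCM7 (-0.12), MCM5 (-0.10) and KIF11 (0.08) had smaller differences. A difference that does not pass does not show equal responses, and those of the 38 genes ran from -0.12 to 0.09 for neil3 and from -0.10 to 0.13 for neil123.

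Other cell-cycle genes, from lists that hold none of the 38, were counted in the paired fit, as higher and lower. The wt values here and in the next paragraph include the unlettered pairs 1.1 and 1.3. In those pairs genes over 8 kb had a median change of -0.157 and -0.112. Whether the wt counts and medians of these lists hold without those pairs was not tested. Of all genes 17.7% and 17.7% in wt, 5.50% and 5.53% in neil1, 5.18% and 3.28% in neil2, 11.3% and 12.7% in neil3 and 6.92% and 4.75% in neil123 were called, and each list is to be read against these shares, which are largest in wt. Of 33 spindle and cytokinesis genes the counts higher and lower were 2 and 14 in wt, 1 and 9 in neil1, 1 and 2 in neil2, 2 and 9 in neil3 and 1 and 5 in neil123. Their medians were -0.055, -0.064, -0.019, -0.049 and -0.015, beside the medians over all genes given above. FAM83D, which recruits a kinase to the spindle, fell in wt (-0.25 ± 0.03, 2.83e-07 as limma adjusted p), neil1 (-0.26 ± 0.05, 3.39e-04), neil3 (-0.30 ± 0.04, 2.68e-06) and neil123 (-0.19 ± 0.04, 0.00209). CEP55, which organises abscission, fell in the same 4 genotypes (-0.29, -0.27, -0.33 and -0.15), as did KNSTRN (-0.25, -0.26, -0.27 and -0.22), a kinetochore protein. Tubulin TUBB4B fell in all 5 (-0.18, -0.19, -0.16, -0.28 and -0.16). Counts were 4 and 9 in wt, 0 and 3 in neil1, 2 and 1 in neil2, 1 and 10 in neil3 and 0 and 1 in neil123 for 37 further genes of mitotic entry, checkpoint and anaphase. They were 2 and 11 in wt, 0 and 2 in neil1, 1 and 0 in neil2, 2 and 4 in neil3 and 1 and 1 in neil123 for 21 genes of condensin and cohesin. For 30 centromere and kinetochore genes they were 10 and 5 in wt, 1 and 1 in neil1, 6 and 0 in neil2, 3 and 3 in neil3 and 3 and 1 in neil123.

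For 48 origin and fork genes the counts were 11 and 10 in wt, 0 and 4 in neil1, 3 and 0 in neil2, 2 and 7 in neil3 and 3 and 2 in neil123. MCM10, which helps start the fork, fell in wt (-0.18 ± 0.03, 3.10e-05 as limma adjusted p), neil1 (-0.19 ± 0.05, 0.00632), neil3 (-0.22 ± 0.04, 1.15e-04) and neil123 (-0.13 ± 0.04, 0.0254). For 17 genes of deoxynucleotide supply the counts were 5 and 7 in wt, 1 and 2 in neil1, 1 and 1 in neil2, 0 and 5 in neil3 and 1 and 1 in neil123. Among 37 G1/S regulators they were 10 and 2 in wt, 4 and 0 in neil1, 6 and 0 in neil2, 9 and 4 in neil3 and 4 and 0 in neil123. CDKN1B, the inhibitor p27 of G1 kinases, rose in all 5 genotypes (0.20, 0.20, 0.13, 0.21 and 0.15). In 21 genes of the p53 response they were 10 and 0 in wt, 8 and 0 in neil1, 6 and 0 in neil2, 5 and 2 in neil3 and 2 and 1 in neil123. GDF15, a secreted stress factor, rose in all 5 (2.27, 2.31, 1.65, 2.65 and 1.46), as did SESN2, a stress-induced regulator of growth signalling (1.08, 0.96, 0.70, 1.12 and 0.67). Other stress factors besides p53 also act on these 2 genes.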

How the data were processed

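RNA of 42 cultures of HAP1 cells was sequenced. The authors deposited 1 table of normalized read counts (a signal: counts divided by a size factor per library). Trim Galore, HISAT2, SAMtools, featureCounts and DESeq2 with GRCh38 (hg38) are named per the submitters' processing notes; versions and the strand setting: not given in the sources used here. The deposited signal gave whole reads for 100% of values (relative tolerance 1e-06), 1 read being worth 0.941 to 1.04. Of 30182 entries 20515 had a symbol; the other 9667, with 0.868% to 1.25% of reads, were left out. Libraries held 26.8 M to 30.7 M reads, and the number of libraries limits the precision.

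log2(value + 1) was fitted with limma 3.58.1 (trend; R 4.3.3) over 12 groups (genotype, treatment and, for wt, label set) for 14331 genes with a mean of at least 10, with Benjamini-Hochberg adjustment over all of them. The wt change with BSO was taken over all 7 pairs. The script was tested on simulated data, with changes placed in wt only and larger than most of those reported here. Members and lists were chosen with earlier results of these data known. Values in every library are given for genes named by a rule on calls and role, and other members by range. Sample names pair the libraries: deviations from the 12 group means correlated at 0.193 to 0.849 within pairs, with the media partner as the closest match for 20 of 21 BSO libraries (0.375 to 0.849 and 21 of 21 over 10 groups that do not split wt), so the fit with the pair as a block is printed where it moves a call. Alternatives were other pseudocounts, filters, scalings and group sets, edgeR 4.0.16 and DESeq2 1.42.0 on recovered reads, 1 mean per line, each library left out, and, chosen after seeing the data, removal of the length trend, wt label sets alone and lines left out. Exonic lengths came from GENCODE 29 (94.8% of genes tested) and promoters from RefSeq.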

Additional observations from a re-analysis of the deposited data

Results flagged for a closer look

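In 228 combinations of a gene and a group, 6 had a library far from the others of its group, and chance gives about 1 in 20 groups of 4 or more. With BSO, neil123 1B was low for KIF20A (5319 normalized read counts, the others 5634 to 5671) and MCM2 (8035, the others 8442 to 8472) and high for CCNE1 (1078, the others 948.8 to 963.4). BIRC5 was high in neil3 2A in media (6741, the others 6214 to 6251). With BSO, MCM5 was low in neil3 1A (8286, the others 8674 to 8685) and MCM7 high in neil3 1B (18914, the others 18288 to 18357).

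The BSO change differed between unlettered and lettered wt, by limma without the block, for CENPF (-0.51, adjusted p = 0.0171) and GINS2 (0.28, adjusted p = 0.0308). In the wt pairs 1.1 and 1.3 without a letter CENPF changed by -0.69 and -0.67 and GINS2 by 0.27 and 0.24.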

How the results depend on the processing

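Counts below are of the 38 genes past the threshold. With the pair as a block they went from 9 to 17 in wt, 1 to 10 in neil1, 1 to 5 in neil2, 5 to 13 in neil3 and 1 to 4 in neil123, and from 0 to 3 and 9 for the differences of neil1 and neil2 from wt. The block with the length trend removed gave 18, 11, 7, 14 and 6, and 1 and 10. The block without the unlettered wt pairs 1.1 and 1.3 gave 15 in wt. Lettered wt alone gave 5 without the block and 11 with it, and CENPF was there at 0.01 without the block, within its standard error of 0.07. In media, neil1 went from 1 to 0 with the label set as a term, without those pairs, with 1 mean per line, only the groups compared, no filter, equal totals, edgeR, the length trend removed or without line 12, and to 3 without line 13. In media, neil2 went from 6 to 0 without those pairs, with only the groups compared, the length trend removed or without line 11, to 2 with the label set as a term, equal totals or without line 12, and to 3 with no filter. In media, neil123 went from 1 to 0 with 1 mean per line or without line 2. Without line 1 the count stayed at 1, but the gene was E2F1 (0.20, limma adjusted p = 0.0397) and not CCNE1 (0.0535). Without line 2 the difference of E2F1 was -0.00. The BSO counts with 1 mean per line were 0 in neil1, neil2 and neil123 and 2 in neil3. With only the groups compared they were 0 in neil1 and neil2 and 3 in neil3, with equal totals 0 in neil2, with DESeq2 2 in neil1 and neil123, and with the length trend removed 2 in neil1 and neil123. Leaving out either line gave 0 in neil1, neil2 and neil123, and 1 (without line 1) or 0 (without line 2) in neil3. Leaving out 1 library gave 0 to 9 for neil1 and neil2 in media, 0 to 0 for neil3 and 1 to 1 for neil123, and with BSO 6 to 10 in wt, 0 to 1 in neil1 and neil2, 3 to 5 in neil3 and 0 to 2 in neil123. For the differences from wt it gave 0 to 2 in neil1, 0 to 4 in neil2 and 0 to 0 in neil3 and neil123. The 9 genes for neil1 and for neil2 in media came without wt p1. Fewer samples or genes enter several of these fits; otherwise the cause was not tested. No scaling moved the median of all genes by more than 0.037. Low counts limit UBE2C, and why they are low was not tested. Small changes of other genes are limited by the number of cultures.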
